A study of Mus musculus with 54 samples.

Results

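The cortex of heterozygous Mbd5+/GT mice was compared with that of wild-type (WT) mice across all genes counted. Of the 54 RNA-seq libraries of the series, the 18 labelled as cortex were used, 10 from Mbd5+/GT mice and 8 from WT mice, with 1 library per mouse. All mice were 8 weeks old, on a C57BL/6 background, and the WT mice were littermates. The Mbd5+/GT mice carry 1 copy of a gene-trap insertion (pU-21B, from the embryonic stem cell line Ayu21-B205) in the second intron of Mbd5, which leaves a hypomorphic allele and is present in all cell types. The mice came from 3 litters, and litter 2 was unbalanced, with 1 WT male beside 4 Mbd5+/GT males. Cortex libraries held 25675871 to 49027399 gene counts in Mbd5+/GT mice and 25295973 to 33917642 in WT mice.

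Mbd5 belongs to the family of proteins with a methyl-CpG-binding domain and is a partner of the complex that removes ubiquitin from histone H2A. Loss of 1 copy of its human counterpart causes a neurodevelopmental disorder with intellectual disability, seizures and autistic features. The cortex is built of layers of excitatory neurons that project within the cortex or to deeper targets, of GABA-releasing interneurons, and of glia and vessels. It borders the striatum and the lateral ventricle, whose wall is lined by ciliated ependymal cells and whose choroid plexus makes cerebrospinal fluid.

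The cortex label was checked against marker genes, with counts normalized over all 54 libraries. Slc17a7, the vesicular glutamate transporter of cortical excitatory neurons, ranged over 14176 to 39224 normalized counts in cortex (median 25375), 437 to 32771 in striatum and 1188 to 14951 in cerebellum. Gabra6, a receptor subunit of cerebellar granule cells, stayed between 4.82 and 240 in cortex against a median of 21941 in cerebellum. All cortex libraries therefore carried the markers of their label, and the striatum libraries carried many of the same genes. In 1 library labelled cerebellum Gabra6 was 53.1, and in 1 labelled striatum the dopamine receptor gene Drd2 was 83.4 against a striatal median of 2595.

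Cortex libraries differed in the genes of neighbouring tissue, and the libraries highest in each tissue came from 1 genotype, while the other libraries overlapped. The sums were not tested between genotypes. The normalized counts of 12 choroid plexus genes, summed per library, spanned 290 to 39825 in Mbd5+/GT libraries (median 9138) and 688 to 7348 in WT libraries (median 2169). Above 10000 lay 5 Mbd5+/GT libraries, from all 3 litters, and no WT library. The sum of 18 genes of striatal projection neurons spanned 21799 to 76454 in Mbd5+/GT libraries (median 37974) and 18567 to 117360 in WT libraries (median 75992). Above 80000 lay 4 WT libraries, again from all 3 litters, and no Mbd5+/GT library. On the scale of all 54 libraries, the striatal sum was 9.56% to 60.8% of the striatum median in WT cortex and 11.3% to 39.5% in Mbd5+/GT cortex. The counts are given with and without these libraries, a choice made after the data were seen. They were picked by the summed level of these lists and come from 1 genotype each, so that a smaller difference in the list itself follows from the choice. In bulk tissue, fewer cells of a type and less RNA per cell cannot be told apart.

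**Figure D1:**
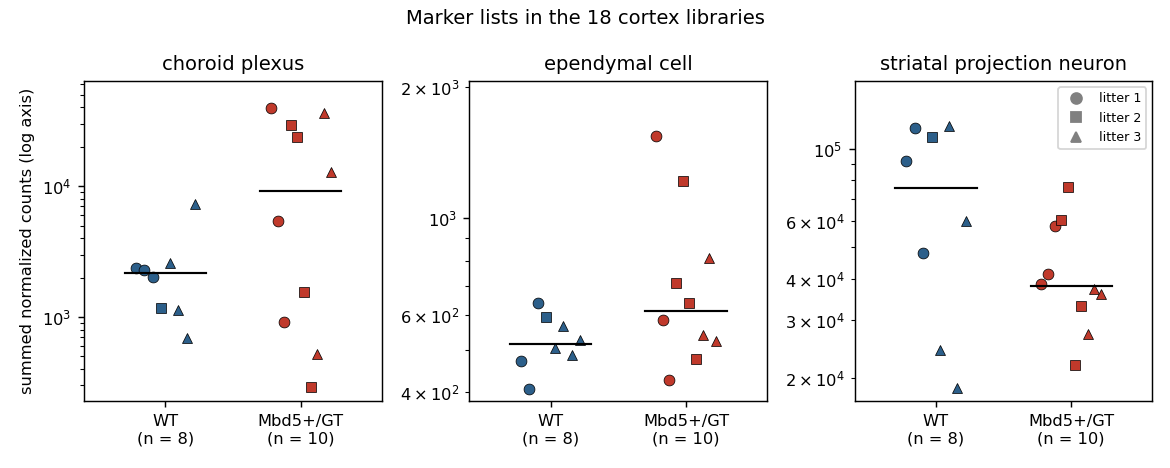
Summed normalized counts (log axis) of the choroid plexus, ependymal cell and striatal projection neuron lists in each cortex library, by genotype, with the symbol giving the litter and the bar the group median. In the choroid plexus panel 5 of the 10 Mbd5+/GT libraries lie above every WT library, and in the striatal panel 4 of the 8 WT libraries lie above every Mbd5+/GT library.

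How many genes differed between genotypes was tested on the 18661 genes that exceeded 4 counts in 8 or more libraries, using the quasi-likelihood test of edgeR with 4 surrogate variables and adjusting by the Benjamini-Hochberg method. Only Mbd5 and Hs6st2 had an adjusted p under 0.05, which is 0.0107% of the genes tested, and both were lower in Mbd5+/GT mice. When p was left unadjusted, the 0.05 threshold was passed by 739 higher (3.96%) and 841 lower (4.51%) genes. The higher genes had a median log2 fold change of 0.28 and 70 of them passed a change of 1 on the log2 scale. The lower genes had a median of −0.20 and 12 passed a change of that size. The Wald test of DESeq2, given those surrogate variables, called 63 genes after adjustment (0.338%), of which 33 rose and 30 fell. A fit of edgeR with genotype alone called 0 genes after adjustment, and 293 higher (1.57%) and 348 lower (1.86%) genes passed unadjusted. The count of genes after adjustment was 1 (Mbd5) without the 5 libraries high in choroid plexus genes and 0 without the 4 high in striatal genes, where 208 higher and 233 lower genes passed unadjusted.

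**Figure D2:**
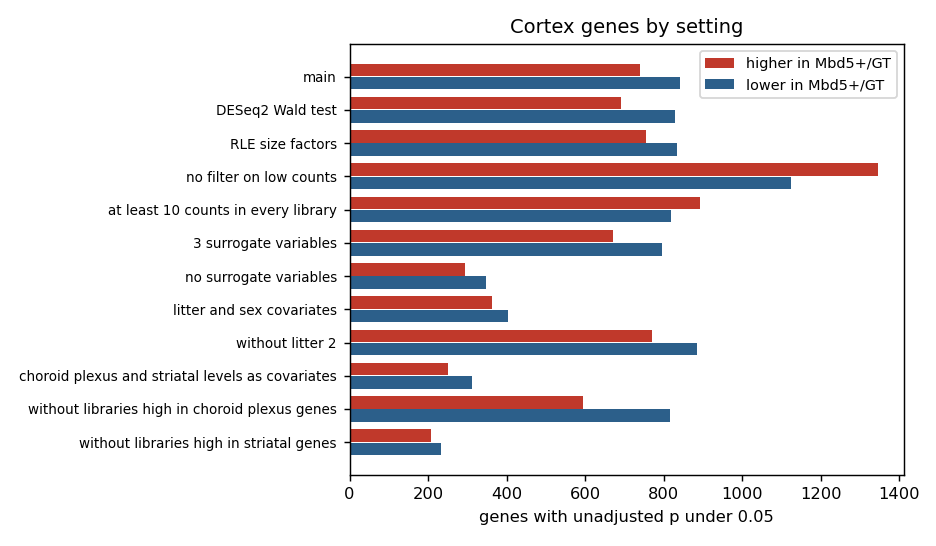
Number of cortex genes with an unadjusted p under 0.05 (x axis), higher or lower in Mbd5+/GT mice, under the fit used in the text (main) and each alternative. The counts run from 208 higher and 233 lower without the libraries high in striatal genes to 1345 higher and 1125 lower without a filter on low counts.

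The targeted gene was reduced in the cortex as labelled. Mbd5 (ENSMUSG00000036792, chromosome 2 of GRCm38, 48949508 to 49325405, plus strand) had 1193, 1344 and 1549 normalized counts as the lowest, median and highest of the Mbd5+/GT libraries, and 1417, 1993 and 2234 in WT libraries. The groups overlapped, and all 10 Mbd5+/GT libraries lay below the WT mean. Its log2 fold change was −0.49 (SE 0.0481, adjusted p = 0.00012). The fold change was −0.48 with terms for litter and sex and −0.51 with genotype alone, and the adjusted p was then 0.797 and 0.0575. The exact 2-sided permutation p of Mbd5, unadjusted and without surrogate variables, was 9.14e-05.

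Hs6st2 encodes a heparan sulfate 6-O-sulfotransferase, an enzyme that adds sulfate to the sugar chains of cell-surface proteoglycans and so shapes the binding of growth factors. The gene lies on chromosome X of GRCm38 (ENSMUSG00000062184, 51387212 to 51681856). Its lowest, median and highest normalized counts were 919, 1122 and 1614 in Mbd5+/GT libraries and 999, 1445 and 2095 in WT libraries. The ranges overlapped over most of their width, and 8 of 10 Mbd5+/GT libraries lay below the WT mean. The log2 fold change was −0.26 (SE 0.0397, adjusted p = 0.035), and the exact 2-sided permutation p without surrogate variables was 0.0519. Within litters 1, 2 and 3 the difference in mean log2 counts was −0.42, −0.57 and −0.26. The adjusted p was 0.386 without the libraries high in choroid plexus genes and 1.0 without those high in striatal genes, with log2 fold changes of −0.24 and −0.20. Of the 24 heparan sulfate enzymes tested, Hs6st2, Hs3st5 (−0.23) and Glce (−0.13) were lower at an unadjusted p under 0.05 and 0 were higher. This is 12.5% lower with Hs6st2 itself counted, against 4.51% of all genes, and the list median was −0.04. Lower and higher enzymes numbered 2 and 0 without surrogate variables and 1 and 0 without litter 2. They numbered 4 and 1 without the libraries high in choroid plexus genes and 1 and 0 without those high in striatal genes.

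The promoters of the genes called after adjustment, and of Npr2, the higher gene with the smallest p, are shown from RefSeq (GRCm38.p6). The reason is that the protein family of Mbd5 is named for methylated CpG. The paper cites earlier work in which MBD5 itself did not bind methylated DNA in vitro, and methylation was not measured in these libraries. CG dinucleotides are in capitals, searched on 1 strand because they read the same on both. The promoter windows run from 250 bases before to 50 bases after the RefSeq gene start on the gene's strand. They lie at chr2:48949258-48949557 (Mbd5, plus strand), chrX:51681553-51681852 (Hs6st2, minus strand) and chr4:43631685-43631984 (Npr2, plus strand). The RefSeq start of Hs6st2 lies inside the span given above, so that its whole window falls within the gene as annotated there.
Mbd5: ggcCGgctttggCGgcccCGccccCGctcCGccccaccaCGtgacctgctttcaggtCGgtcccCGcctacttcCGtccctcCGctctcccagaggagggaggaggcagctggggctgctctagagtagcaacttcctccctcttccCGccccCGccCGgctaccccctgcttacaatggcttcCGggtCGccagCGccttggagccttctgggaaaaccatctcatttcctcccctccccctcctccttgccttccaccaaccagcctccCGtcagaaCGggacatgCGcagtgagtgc
Hs6st2: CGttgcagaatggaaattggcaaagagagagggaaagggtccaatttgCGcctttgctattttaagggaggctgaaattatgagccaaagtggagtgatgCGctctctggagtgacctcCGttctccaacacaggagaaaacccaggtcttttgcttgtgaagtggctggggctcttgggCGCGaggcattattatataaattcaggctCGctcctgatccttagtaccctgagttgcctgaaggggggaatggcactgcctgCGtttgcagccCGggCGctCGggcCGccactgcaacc
Npr2: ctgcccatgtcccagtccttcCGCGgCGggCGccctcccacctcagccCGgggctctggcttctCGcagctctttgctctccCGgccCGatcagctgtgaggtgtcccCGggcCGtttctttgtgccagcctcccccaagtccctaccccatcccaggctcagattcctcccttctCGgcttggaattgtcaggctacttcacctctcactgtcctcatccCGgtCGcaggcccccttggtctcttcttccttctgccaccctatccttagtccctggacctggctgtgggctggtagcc
CG occurs 19 times in the Mbd5 window, 12 times in that of Hs6st2 and 13 times in that of Npr2. Of the 10511 promoters matched to protein-coding genes tested in cortex, 99.4% held CG and the median was 20. These are 68.4% of the 15374 genes, under the 80% needed, so that a check of CpG content over the genes was void.

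The 12 protein-coding genes of smallest p that were higher in Mbd5+/GT mice had log2 fold changes between 0.17 and 0.58 and adjusted p-values between 0.117 and 0.216, so that none passed the adjusted threshold in the quasi-likelihood test of edgeR. By DESeq2 all 12 did, and so did the 12 lower genes below. The genes were chosen by p in the same libraries. Npr2, a receptor that makes cyclic GMP in response to C-type natriuretic peptide, had 1997, 2149 and 2333 normalized counts as the lowest, median and highest Mbd5+/GT libraries and 1710, 1869 and 2050 in WT libraries. The groups overlapped only between 1997 and 2050, and its log2 fold change was 0.18 (SE 0.0335). Lgi4, a secreted protein known for its part in myelination by Schwann cells, had 1307, 1470 and 1585 counts in Mbd5+/GT libraries and 1064, 1257 and 1410 in WT libraries, with overlapping ranges and a log2 fold change of 0.21 (SE 0.0389). Nrbp2, a pseudokinase, had 4909, 5284 and 5929 against 3899, 4387 and 5210, and a log2 fold change of 0.23 (SE 0.0517). For these 3 genes every Mbd5+/GT library lay above the WT mean, and the exact 2-sided permutation p, unadjusted and without surrogate variables, was 9.14e-05, 0.00048 and 0.000229.

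Ppfia3 encodes liprin-alpha-3, a scaffold of the presynaptic active zone, and had 4822, 6439 and 7681 counts in Mbd5+/GT libraries against 4287, 5266 and 6802 in WT libraries (log2 fold change 0.19, SE 0.0376). Hdac7, a class IIa histone deacetylase, had 1342, 2015 and 2141 against 1242, 1655 and 2469 (0.19, SE 0.0374), so that its highest library was WT. Snapc4, a subunit of the complex that activates small nuclear RNA genes, had 1900, 2191 and 2506 against 1586, 1978 and 2368 (0.17, SE 0.0375). Fxyd7, a regulator of the sodium pump, had 1107, 1515 and 2041 against 785, 1207 and 2132 (0.20, SE 0.0462). The difference had the same sign in all 3 litters for each of the 12 higher genes, while 8 had an exact permutation p under 0.05 without surrogate variables. Both counts come from the libraries by which the genes were chosen, so that they follow in part from the choice and are no replication. Cfap44 (0.46, SE 0.0836), Vwa3a (0.44, SE 0.0899) and Casc1 (0.58, SE 0.118) were the larger changes, and Cfap44 and Casc1 encode axonemal proteins of motile cilia. The highest Cfap44 library had 353 counts and the lowest 81.5 among Mbd5+/GT mice, against 66.0 to 223 among WT mice. Pip5kl1, related to phosphatidylinositol phosphate kinases, had a log2 fold change of 0.35 (SE 0.0764), and Abhd14b, a hydrolase-fold protein, one of 0.21 (SE 0.0469).

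Among the 12 lower genes of smallest p, Mbd5 and Hs6st2 aside, the adjusted p ran up to 0.212 and the log2 fold changes from −0.20 to −0.51. Nt5e, the ecto-5′-nucleotidase that makes adenosine outside cells, had 169, 202 and 246 normalized counts as the lowest, median and highest Mbd5+/GT libraries and 136, 320 and 504 in WT libraries. All Mbd5+/GT libraries lay inside the WT range, and the log2 fold change was −0.51 (SE 0.111). Gcnt2, a glycosyltransferase that branches poly-N-acetyllactosamine chains, had 692, 908 and 1149 against 895, 1134 and 1466 (−0.40, SE 0.0779). Prkar2b, a regulatory subunit of protein kinase A, had 1881, 2477 and 3224 against 2126, 3027 and 4355 (−0.27, SE 0.0592). Dlx6, a homeobox factor of GABAergic neurons, had 176, 227 and 501 against 133, 369 and 604 (−0.41, SE 0.0916). Both ranges overlapped, and for Dlx6 the lowest library was WT.

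Tmem100, a membrane protein, had 314, 354 and 412 counts in Mbd5+/GT libraries against 327, 451 and 493 in WT libraries, and every Mbd5+/GT library lay below the WT mean (−0.27, SE 0.0525). Zfp385b, a zinc finger protein, had 684, 928 and 1104 against 965, 1092 and 1248 (−0.25, SE 0.0539), and Mpped2, a metallophosphoesterase, had 704, 866 and 1078 against 853, 1000 and 1287 (−0.25, SE 0.0519). Xk, a membrane protein that pairs with the Kell blood group antigen in red cells, had 591, 648 and 786 against 660, 809 and 885 (−0.21, SE 0.0409). The ranges of these 4 genes overlapped. For Npy, the neuropeptide of a class of interneurons, the medians were close, 1900 in Mbd5+/GT and 1891 in WT libraries, while the fit gave −0.20 (SE 0.0414), and the exact permutation p without surrogate variables was 0.534. The change in Mei1, a gene known for its part in meiosis, was −0.28 (SE 0.0601) in the fit, while the difference was 0.35 in the other direction in litter 2. It was the exception among the 12 lower genes, of which 11 had the same sign in all 3 litters. This count too comes from the libraries by which the genes were chosen.

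**Figure D3:**
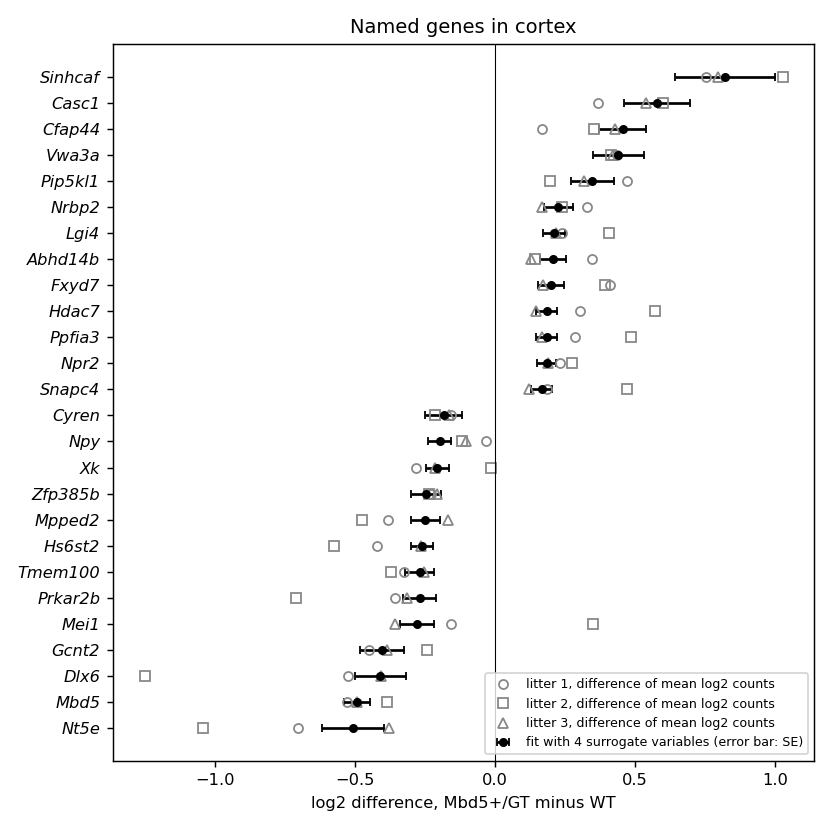
Log2 difference between Mbd5+/GT and WT cortex (x axis) for each named gene, with the fitted value and its SE in black and the difference of mean log2 normalized counts within each litter as open symbols. Litter 2, with 1 WT mouse, lies far from the others for Dlx6, Nt5e and Mei1.

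Complete separation of the genotypes was rare. Of the 18661 genes, 2 (0.0107%) had groups that did not overlap. Sinhcaf, a subunit of the SIN3 histone deacetylase complex, had 11.5, 15.4 and 23.0 normalized counts in Mbd5+/GT libraries and 7.02, 9.27 and 11.1 in WT libraries (log2 fold change 0.82, SE 0.179, adjusted p = 0.20). Cyren, an inhibitor of DNA end joining, had 144, 160 and 168 against 169, 172 and 206 (−0.18, SE 0.0653, adjusted p = 0.44). Sinhcaf was at low counts in every library, and the Cyren groups were separated by a narrow gap. Of the 26 genes named so far, 17 overlap the span of another gene in the table, among them Lgi4 with Fxyd3, Hdac7 with Slc48a1 and Dlx6 with the antisense genes Dlx6os1 and Dlx6os2, and reads of such pairs may have been shared.

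For the gene lists, higher and lower mean an unadjusted p under 0.05, to be read against 3.96% higher and 4.51% lower of all genes. List counts without surrogate variables are to be read against 1.57% and 1.86%. Without the libraries high in striatal genes, 208 higher and 233 lower of 18186 genes passed, against 739 and 841 of 18661 in the main fit. A smaller list count in that setting is therefore not by itself particular to the list. Higher and lower genes numbered 893 and 819 of 15289 with at least 10 counts in every library. They numbered 770 and 885 of 18092 without litter 2, and 596 and 817 of 18072 without the libraries high in choroid plexus genes. Without a filter on low counts they were 1345 and 1125 of 31496, and with litter and sex 364 and 403 of 18661. List counts in each setting are to be read against these. After adjustment only Hs6st2 among list members passed in the quasi-likelihood test of edgeR, while DESeq2 also called Kcne2, Ttr, Slc4a5, Col8a2, Unc13c, Neto2, Ppfia3, Hdac7, Npy and Dlx6. Genes of the choroid plexus were higher in Mbd5+/GT cortex. Of 12 choroid plexus genes, 11 were higher at an unadjusted p under 0.05 and 0 were lower, with a median log2 fold change of 1.67 against −0.004 over all genes tested. Ttr, which encodes the thyroid hormone carrier transthyretin, had 55.5, 7935 and 35017 normalized counts as the lowest, median and highest Mbd5+/GT libraries and 126, 1191 and 6443 in WT libraries. The lowest library was Mbd5+/GT and so were the highest, and the log2 fold change was 3.35 (SE 1.28, adjusted p = 0.497). Kl, which encodes klotho, had 105, 354 and 1077 against 106, 177 and 232 (1.43, SE 0.509), and Folr1, a folate receptor, had 6.52, 70.7 and 307 against 2.14, 15.7 and 64.8 (2.57, SE 0.854). Without the 5 libraries high in these genes 0 of the 12 passed in either direction and the median was −0.27. Without litter 2 it was 2 of 12, without a filter on low counts 2 of 12, and 1 of 6 with at least 10 counts in every library.

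Of the 9 ependymal cell genes tested, 7 were higher and 0 lower, with a median log2 fold change of 0.58, among them Ccdc153 (1.28, SE 0.359), Tmem212 (1.35, SE 0.459) and Rarres2 (0.46, SE 0.155). Among the 5 libraries highest in choroid plexus genes, 4 were also among the 5 highest in ependymal genes. Without the libraries high in choroid plexus genes 0 of 9 passed and the median was 0.05. It was also 0 of 9 without litter 2 (median 0.18) and without the libraries high in striatal genes (median 0.04), 2 of 9 with litter and sex and 4 of 9 with genotype alone. In the collagen list, 5 of 44 genes were higher and 0 lower, with a median of −0.01. Col8a2 (1.04, SE 0.289), Col8a1 (0.67, SE 0.258), Col9a3 (0.39, SE 0.161), Col4a3 (0.72, SE 0.286) and Col26a1 (0.30, SE 0.0789) were those that passed, and without the choroid-high libraries 1 was higher and 3 lower. The part of choroid plexus tissue in the higher genes was not tested.

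Of 18 genes of striatal projection neurons tested, 6 were lower in Mbd5+/GT cortex and 0 higher, with a median log2 fold change of −0.41 (−0.85 without surrogate variables). Penk, the precursor of enkephalin, had 1730, 3735 and 11987 normalized counts as the lowest, median and highest Mbd5+/GT libraries and 1410, 8899 and 17740 in WT libraries (−0.51, SE 0.202, adjusted p = 0.503). Adcy5, the adenylyl cyclase of striatal neurons, had 4442, 7129 and 11344 against 4591, 10920 and 17883 (−0.34, SE 0.136). Pdyn, Rasd2, Scn4b and Tac1 were the others, with log2 fold changes between −0.39 and −0.48. In each of these genes the WT libraries spread more widely than the Mbd5+/GT libraries. Without the 4 WT libraries high in this list 0 of 18 passed and the median was −0.02. The count was 1 of 18 without litter 2, 2 of 18 without a filter on low counts and 0 of 16 with at least 10 counts in every library.

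GABA interneuron genes were lower in 7 of 27 cases and higher in 0, with a median log2 fold change of −0.06. Besides Npy and Dlx6 these were Sst (−0.19, SE 0.0602), Maf (−0.16, SE 0.0499), Reln (−0.30, SE 0.118), Crh (−0.26, SE 0.116) and Gad2 (−0.28, SE 0.123). Gad2, the GABA-synthesizing enzyme, had 4414, 5979 and 12271 counts in Mbd5+/GT libraries and 5050, 7610 and 16018 in WT libraries, and is also expressed by striatal projection neurons. Sst had a higher median in Mbd5+/GT libraries, 4141 against 3786, although the fitted change was negative. Without surrogate variables 1 of 27 was lower (median −0.11), and without the libraries high in striatal genes 1 of 27 (median −0.08).

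Markers of deep cortical layers were lower in 5 of 20 and higher in 0, with a median log2 fold change of −0.13. Syt6, a synaptotagmin of layer 6 neurons, had 885, 1205 and 2075 normalized counts in Mbd5+/GT libraries and 1117, 1694 and 2559 in WT libraries (−0.45, SE 0.133, adjusted p = 0.392). Tle4, a corepressor of layer 6 neurons, had 1312, 1402 and 1931 against 1323, 1721 and 2029 (−0.19, SE 0.081), and Bcl11b, the transcription factor of neurons that project out of the cortex and of striatal neurons, had 1519, 2269 and 2878 against 1719, 2713 and 4365 (−0.29, SE 0.128). Parm1 and Etv1 were lower by 0.23 and 0.14 on the log2 scale. Markers of upper layers were lower in 2 of 15, Pou3f1 (−0.34, SE 0.0976) and Calb1 (−0.20, SE 0.0823), and Neurod2 was the 1 of 12 excitatory neuron genes that was higher (0.18, SE 0.0606). The deep layer count was 6 of 20 without the libraries high in choroid plexus genes and 1 of 20 without those high in striatal genes.

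Of 39 glutamate receptor and auxiliary subunit genes 7 were lower and 0 higher, with a median log2 fold change of −0.07. Neto2, an auxiliary subunit of kainate receptors, had 1617, 2267 and 2838 normalized counts in Mbd5+/GT libraries and 1979, 2835 and 3017 in WT libraries (−0.22, SE 0.0549, adjusted p = 0.268). Its relative Neto1 had 1239, 1492 and 1774 against 1372, 1685 and 2118 (−0.24, SE 0.0658). Shisa9 (−0.22), Cacng3 (−0.19), Cacng4 (−0.20) and Grm5 (−0.16) were also lower. Of 27 genes of GABA and glycine receptors and transport 5 were lower and 0 higher, namely Gabrd (−0.19), Gabra4 (−0.15), Gabrg3 (−0.13), Gabra2 (−0.11) and Gphn (−0.09), the last of which anchors these receptors. Their median log2 fold change was −0.06. Without the libraries high in striatal genes 0 of 39 and 0 of 27 were lower, with medians of 0.01 and −0.05. Without litter 2 the glutamate receptor list held 5 lower and 3 higher genes.

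Of 55 genes of the postsynaptic scaffold and adhesion, 7 were lower and 0 higher, among them Lrrtm3 (−0.22, SE 0.0579), Nlgn1 (−0.13, SE 0.043), Flrt3 (−0.18, SE 0.069) and Dlg1 (−0.13, SE 0.0489). Without surrogate variables 2 of 55 were lower, without the libraries high in striatal genes 0, and with at least 10 counts in every library 5 were lower and 4 higher. In the synaptic vesicle release list 5 of 57 were lower and 2 higher, Ppfia3 and Vamp1 (0.16, SE 0.0721). Unc13c, which primes vesicles, had 536, 1144 and 2540 normalized counts in Mbd5+/GT libraries and 802, 2414 and 4595 in WT libraries (−0.42, SE 0.112, adjusted p = 0.316). Cplx2 (−0.21, SE 0.0728), Syt6, Sv2c (−0.41, SE 0.164) and Syt12 (−0.12, SE 0.0449) were the other lower genes. With at least 10 counts in every library 3 were lower and 4 higher, and without litter 2 these counts were 2 and 4. Of the 57, 2 were lower without surrogate variables and 0 without the libraries high in striatal genes.

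Potassium channel genes were lower in 8 of 60 and higher in 1. Kcns2 (−0.22, SE 0.0686), Kcnq5 (−0.19, SE 0.0708), Kcnip3 (−0.11, SE 0.0428) and Kcnf1 (−0.21, SE 0.0837) fell at an unadjusted p under 0.05, and Kcng4 rose (0.30, SE 0.0988). Lower and higher genes numbered 3 and 0 without surrogate variables, 3 and 5 with at least 10 counts in every library, 4 and 4 without litter 2, and 0 and 0 without the libraries high in striatal genes. Of 24 sodium and calcium channel genes 2 were lower, Cacna2d3 (−0.24) and Scn4b (−0.48). Among 63 axon guidance genes 8 were lower, namely Sema5b, Sema3c, Sema3a, Sema3d, Sema3e, Efnb2 (−0.30, SE 0.0854), Epha3 (−0.34, SE 0.108) and Plxna2 (−0.19, SE 0.0886). Slit1 was higher (0.35, SE 0.119). The semaphorin Sema3b, which was not on the list, went the other way, with a log2 fold change of 0.58 and an adjusted p of 0.0454 by DESeq2. The axon guidance count was 14 of 63 lower without the libraries high in choroid plexus genes and 2 of 63 without those high in striatal genes. With at least 10 counts in every library 6 were lower and 7 higher.

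**Figure D4:**
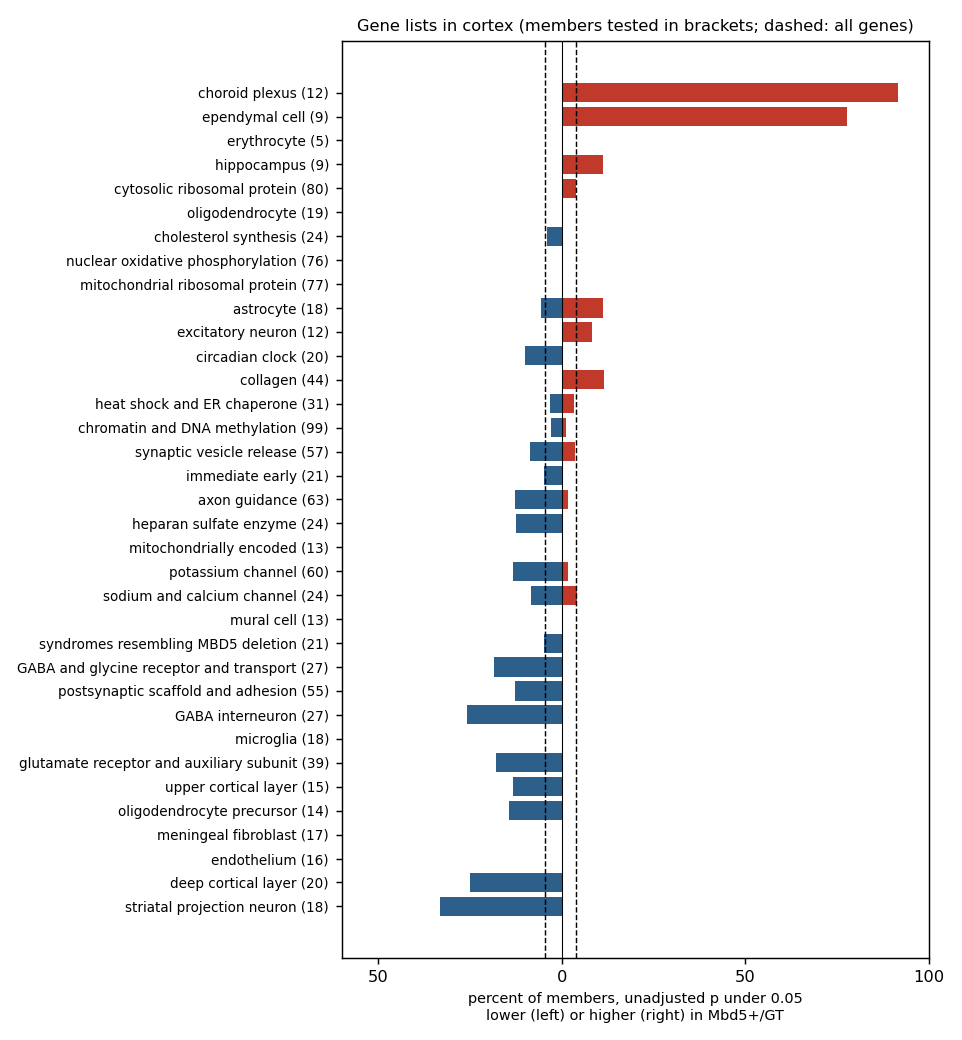
Percent of members with an unadjusted p under 0.05 that were lower (left, blue) or higher (right, red) in Mbd5+/GT cortex, for each gene list, with the number of members tested in brackets and the percent over all genes as dashed lines. Choroid plexus and ependymal genes stand at 91.7% and 77.8% higher, and striatal projection neuron genes at 33.3% lower.

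Other lists had few or no members past the threshold. Of 99 chromatin and DNA methylation genes, Hdac7 was higher and Hdac9 (−0.20, SE 0.0646), Smarca2 (−0.14, SE 0.0544) and Kdm3a (−0.14, SE 0.0555) were lower, shares of 1.01% and 3.03% that lie under those of all genes. The oligodendrocyte precursor genes Neu4 (−0.20, SE 0.0656) and Gpr17 (−0.26, SE 0.0996) were lower among 14, and of 18 astrocyte genes Ndrg2 (0.14) and Gfap (0.23) were higher and Slc4a4 (−0.15) lower. Lists with 0 members past the threshold in either direction were oligodendrocyte, microglia, endothelium, mural cell, meningeal fibroblast and erythrocyte markers, nuclear oxidative phosphorylation, mitochondrially encoded and mitochondrial ribosomal protein genes. Of 80 cytosolic ribosomal protein genes 3 were higher, and 27 of 80 were without the libraries high in choroid plexus genes. The 20 circadian clock genes held Npas2 (−0.28) and Cry1 (−0.16) as lower, and the 31 heat shock and ER chaperone genes Hsph1 (−0.16) as lower and Ddit3 (0.15) as higher. The 24 cholesterol synthesis genes held Hsd17b7 (−0.12) as lower, and the 21 immediate early genes Homer1 (−0.26) as lower. Of the 9 hippocampus genes Dsp was higher (1.90, SE 0.561). Its lowest, median and highest normalized counts were 3.88, 21.1 and 469 in Mbd5+/GT libraries and 2.63, 8.84 and 21.1 in WT libraries. The exact 2-sided permutation p of Dsp without surrogate variables was 0.103.

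Lower genes were longer than higher ones. Over 15374 protein-coding genes, the median gene length, introns included, was 25.0 kb, that of the higher genes 17.8 kb and that of the lower genes 51.6 kb. Genes were split by length into 10 classes of equal size. In the shortest class, up to 4.70 kb, 4.88% were higher and 2.80% lower, with a median log2 fold change of 0.02. In the longest class, from 139 kb, 2.08% were higher and 10.2% lower, with a median of −0.04. Without the libraries high in striatal genes the longest class gave 0.784% higher and 1.70% lower, and a median of 0.01. Fewer genes passed in that setting, 233 lower of all 18186 tested, and the shortest class gave 0.734% higher and 0.935% lower. Without the libraries high in choroid plexus genes the longest class gave 10.8% lower. With choroid plexus and striatal levels as covariates the median was −0.059 in the longest class and 0.06 in the shortest. It was −0.008 and −0.003 with at least 10 counts in every library, and −0.009 and −0.013 without litter 2. In these last settings 6.38% and 6.74% of the longest class were lower, against 2.88% of the shortest in each. The mean log2 count of the longest class minus that of the shortest, taken per library and relative to the WT mean, averaged −0.08 ± 0.163 (SD, n = 10) for Mbd5+/GT and 0.0 ± 0.269 (SD, n = 8) for WT. It ran from −0.28 to 0.14 and from −0.56 to 0.21, so that the difference was smaller than the spread between mice and the lowest library was WT.

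**Figure D5:**
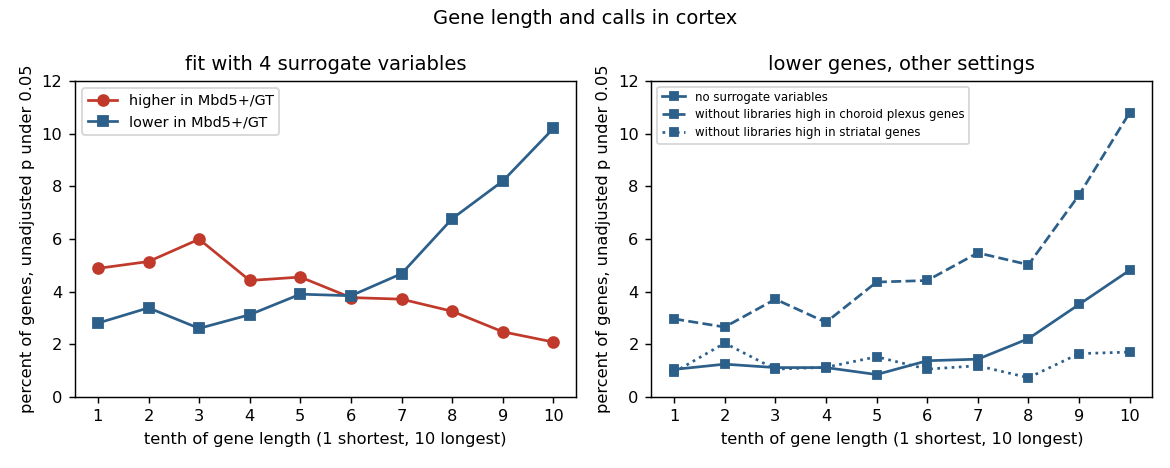
Percent of protein-coding genes with an unadjusted p under 0.05 in each of 10 gene length classes (1 shortest, 10 longest), higher and lower in Mbd5+/GT cortex in the fit of the text (left), and lower under 3 other settings (right). The lower share stands at 10.2% in the longest class and 2.80% in the shortest. Without the libraries high in striatal genes these are 1.70% and 0.935%.

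Whether the genotype effect in cortex differed from that in the other regions of the same mice was tested as an interaction over all 54 libraries without surrogate variables. No gene passed an adjusted p of 0.05 against either region by the quasi-likelihood test of edgeR, and 865 of 20477 differed at an unadjusted p under 0.05 against striatum and 228 against cerebellum. Both counts lie under the share of genes that an unadjusted p of 0.05 passes where none differs. With the mouse as a replicate block these counts were 804 and 205. Without the 2 libraries low in their region's markers they were 930 and 618, again with 0 after adjustment. The fitted difference was −0.57 for Xk against striatum (SE 0.202, unadjusted p = 0.00665) and −0.78 for Nt5e against cerebellum (SE 0.362, unadjusted p = 0.0359). Both were more negative in cortex. These genes were chosen by their p in cortex, so that a larger change there follows in part from the choice. For Npr2 and Lgi4 the differences from striatum were 0.09 (SE 0.125) and 0.15 (SE 0.127), within about 1 SE of 0. For the genotype effect in female against male cortex no gene passed after adjustment by the same test, and 242 of 18661 passed unadjusted.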

How the data were processed

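RNA from the cortex of 10 Mbd5+/GT and 8 WT mice was taken from a count table of 54 libraries, with groups from the sample labels. The authors deposited raw counts, as whole numbers for each gene and library. Per the submitters' processing notes the authors used FastQC (0.10.1) and STAR (2.4.2) with GRCm38, and the strand setting of the counts is not given in the sources used here. It lists 47069 genes. The 92 ERCC spike-ins, left out of library sizes, took 0.0449% to 0.251% of the cortex libraries. Gene names and positions came from GENCODE (GRCm38), which matched 46574 identifiers.

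Genes exceeding 4 counts in 8 or more cortex libraries were scaled by TMM and tested in edgeR 4.0.16 (quasi-likelihood, robust dispersions) in R 4.3.3, with genotype and 4 surrogate variables from sva 3.50.0. P-values were adjusted by the Benjamini-Hochberg method over all genes tested, and the SE was the log2 fold change divided by the square root of F. Normalized counts are on the scale of the mean library. DESeq2 1.42.0 was an alternative. Interactions with region and sex had no surrogate variables. The regions of a mouse came from the same animal, which pairs them, and the mouse was used as a replicate block in an alternative. Exact permutation tests of log2 counts (pseudocount 0.5) used all 43758 splits of the 18 mice. Pairs of libraries of a genotype differed by at least 9.74 in chi-square per gene, far above counting error, so no library was counted as a repeat. P-values and SEs of fits with surrogate variables measure the spread between these mice that was left after those variables. Those variables came from the same libraries. The exact permutation tests measure the spread between mice without that removal. The quasi-likelihood, DESeq2 and interaction fits were run on simulated counts with known changes. The simulated counts held no litters, neighbouring tissue or other shared factors, so they cannot decide between fits that differ in these data.

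Named genes were those at an adjusted p under 0.05, the 12 protein-coding genes of smallest p in each direction with a mean of at least 50 normalized counts, up to 4 members of each of 35 gene lists with the smallest unadjusted p under 0.05, and genes whose groups did not overlap. A few further list members were named after their values were seen. The lists were chosen with earlier results of these data known. Alternatives changed the test, normalization, filter, surrogate variables, covariates and libraries used. Values of a few genes are not reported here.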

Additional observations from a re-analysis of the deposited data

Results flagged for a closer look

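In 8 of 84 groups checked, 1 library lay far from the others of its genotype by the gap to its nearest neighbour as a share of the group's range, where chance flags about 1 in 20. The share was 0.516 for the lowest Mbd5+/GT library and 0.528 for the highest WT library in Hdac7. It was 0.549 for the highest WT library in Abhd14b, 0.578 for the highest Mbd5+/GT library in Nrbp2, 0.477 for the lowest Mbd5+/GT library in Zfp385b and 0.658 for the highest Mbd5+/GT library in Dlx6. Among marker lists it was 0.714 for the highest WT library in choroid plexus genes, at 7348 summed normalized counts, and 0.628 for the highest Mbd5+/GT library in hippocampus genes, at 3413.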

How the results depend on the processing

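The 26 genes named by p, by adjusted p or by separation kept their direction under every alternative in which they were tested, while their size moved. Dlx6 ran from −0.68 (litter and sex) to −0.08 (tissue levels as covariates), Mpped2 from −0.31 to −0.10 and Hdac7 from 0.28 to 0.08 under the same settings, and Abhd14b was 0.09 without the libraries high in striatal genes. Mbd5 had an adjusted p of 0.797 with litter and sex, 0.651 with tissue levels as covariates, 0.216 without the libraries high in striatal genes and 0.0575 with genotype alone. Across alternatives it was at most 0.797 for Mbd5 and 1.0 for Hs6st2, the lowest being 1.3e-16 and 5.71e-06 by DESeq2. The number of genes at an adjusted p under 0.05, 2 in the text, was 63 with DESeq2, 7 without a filter on low counts, 1 with 3 surrogate variables, 1 without the libraries high in choroid plexus genes, and 0 with genotype alone, with terms for litter and sex, with choroid plexus and striatal levels as covariates, or without the libraries high in striatal genes (quasi-likelihood test, except the first). At an unadjusted p under 0.05 the number of higher genes was 1345 without a filter, 293 with genotype alone, 364 with litter and sex, 251 with the tissue levels as covariates and 208 without the libraries high in striatal genes. The number of lower genes was 348, 403, 311 and 233 in the last 4 of these.

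The genes behind these counts depended on the filter too. Of the 739 higher genes, 382 were also higher at that threshold without a filter and 381 with at least 10 counts in every library, and of the 841 lower genes 349 and 412 were. Surrogate variables were estimated anew on each set of genes. In the interaction fits, leaving out litter 2 gave 1359 genes between cortex and striatum and 129 between cortex and cerebellum at an unadjusted p under 0.05, and leaving out the 2 libraries low in their region's markers gave 618 between cortex and cerebellum. With the mouse as a replicate block, which uses the pairing of regions by animal, the counts were 804 and 205 and no call changed. The cause of these shifts was not tested.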

Other observations

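Of the genes named above, Fxyd7 and Lgi4 lie close together on chromosome 7 of GRCm38, with Fxyd5 and Fxyd1, between 31032722 and 31070935. The log2 fold changes were 0.31 for Fxyd5 (SE 0.0732, unadjusted p = 0.000521), 0.20 for Fxyd7, 0.23 for Fxyd1 (SE 0.0585, unadjusted p = 0.00117) and 0.21 for Lgi4, from edgeR's quasi-likelihood test. The next genes, Fxyd3 and Hpn, gave 0.58 (SE 0.343) and 0.10 (SE 0.12) and did not pass an unadjusted p of 0.05. Fxyd5, Fxyd1, Fxyd3 and Hpn were named after their values were seen.

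By chromosome, the share of lower genes ran from 2.81% on chromosome 11 to 6.73% on chromosome 12, and the share of higher genes from 2.02% on chromosome 18 to 6.23% on chromosome 15.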
